A study of Mus musculus with 8 samples.

Results

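The genes described here are 10 that encode secreted antimicrobial and acute-phase proteins in the mouse: the lectins Reg3b and Reg3g, the serum amyloid A genes Saa1, Saa2 and Saa3, the lipocalin Lcn2, the chitinase-like gene Chil1, the whey acidic protein family genes Wfdc18 and Slpi, and the ribonuclease gene Ang4. They were taken by symbol, and all 10 of them were found among the 55418 gene symbols of the count table. The animals were C57BL/6 mice, 8 to 10 weeks old, in 4 groups of 2, and RNA of the distal colon was sequenced. The groups were WT untreated, WT after dextran sulfate sodium (DSS), NAIL-ΔNFκB untreated and NAIL-ΔNFκB after DSS. DSS, a polymer that damages the colon epithelium and causes colitis, was given at 3% for 4 days, and 4 days of normal water followed. NAIL is a long noncoding RNA, and the series title places it in p38 activation and in NFκB-dependent chromatin remodelling during inflammation. No source used here gives how the NAIL-ΔNFκB line was made, its zygosity or whether the controls were littermates. The labels do not say that the 2 mice of a group came from separate litters or cages, so p-values measure the spread between these samples.

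The gut epithelium keeps bacteria at a distance with mucus and with secreted proteins that kill bacteria, starve them of iron or restrain host proteases. Many of the genes are switched on by cytokines made by immune cells during injury, above all interleukin 22, interleukin 17, interleukin 1 and interleukin 6, through the transcription factors STAT3, NFκB, IκBζ and C/EBP. Lcn2 protein in stool is a common marker of gut inflammation in mice, and serum amyloid A is the classical acute-phase protein of the liver, with Saa3 made mainly outside the liver.

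Total counts ran from 9229861 to 16935961 per library. A gene's level is given as counts per 1000000 counts after scaling between libraries (CPM). Gm16685, the transcript taken from general knowledge to be mouse NAIL, had deposited counts of 3 and 20 in untreated WT, 57 and 126 in WT after DSS, 3 and 4 in untreated NAIL-ΔNFκB, and 55.1 and 86 in NAIL-ΔNFκB after DSS; since the labels do not say which bases the allele lacks, these counts do not check the genotype. Transcripts of 4 Y-linked genes were summed as a check of sex, which the labels do not give. They marked untreated WT replicate 2 and both untreated NAIL-ΔNFκB mice as male, and the other 5 mice, with all 4 DSS mice among them, as female. In NAIL-ΔNFκB, therefore, DSS and sex cannot be told apart from these 2 groups alone. Epithelial markers were high in every library (6640 to 12193 CPM summed over 10 genes), and the 4 Paneth cell defensins on the marker list were at 0 throughout.

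The serum amyloid genes sit together on chromosome 7 (mm10): Saa3 at chr7:46711998-46715700 on the minus strand, Saa1 at chr7:46740497-46742980 on the minus strand and Saa2 at chr7:46751790-46754313 on the plus strand. Saa1 and Saa2 are near copies. Their transcripts shared 94.4% of aligned bases and their promoters 95.6%, against 76.3% and 64.4% for Saa1 and Saa3. The stretches directly upstream are shown for these 3 because closely similar promoters went with very unequal counts, and for Reg3g because 2 of the searched motifs fall in it. Sequences are from RefSeq on GRCm38.p6, read 5′ to 3′ on the gene's strand, with exonic bases left out and motif matches in capitals.
Saa1, chr7:46742981-46743230, minus strand: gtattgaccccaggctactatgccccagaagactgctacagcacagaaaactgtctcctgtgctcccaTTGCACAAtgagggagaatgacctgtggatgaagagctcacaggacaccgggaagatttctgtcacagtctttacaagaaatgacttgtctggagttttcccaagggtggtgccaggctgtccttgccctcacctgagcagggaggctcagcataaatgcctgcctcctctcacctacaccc
Saa2, chr7:46751583-46751789, plus strand: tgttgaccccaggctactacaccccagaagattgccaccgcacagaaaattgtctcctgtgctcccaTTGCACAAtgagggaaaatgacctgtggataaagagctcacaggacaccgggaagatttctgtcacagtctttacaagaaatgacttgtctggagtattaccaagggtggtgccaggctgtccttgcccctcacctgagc
Saa3, chr7:46715701-46715926, minus strand: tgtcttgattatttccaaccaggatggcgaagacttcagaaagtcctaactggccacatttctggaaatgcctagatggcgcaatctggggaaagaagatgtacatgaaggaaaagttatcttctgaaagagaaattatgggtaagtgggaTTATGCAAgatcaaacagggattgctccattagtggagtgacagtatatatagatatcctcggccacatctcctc
Reg3g, chr6:78468875-78469124, minus strand: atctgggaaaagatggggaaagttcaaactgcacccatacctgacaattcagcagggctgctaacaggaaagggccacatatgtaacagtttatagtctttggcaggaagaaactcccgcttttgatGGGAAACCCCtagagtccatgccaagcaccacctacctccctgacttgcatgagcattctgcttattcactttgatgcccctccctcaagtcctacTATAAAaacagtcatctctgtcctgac

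The capitals mark the C/EBP letters TTNNGCAA in the 3 serum amyloid promoters, and in Reg3g the NFκB consensus followed by the TATA letters TATAAA. Saa1 and Saa2 carried the same 8 bases, TTGCACAA on the gene's strand, which hold the C/EBP letters when the opposite strand is read. These bases lay at -182 to -175 from the Saa1 start and -183 to -176 from the Saa2 start. In Saa3 the match was TTATGCAA, at -99 to -92 from the start. These positions count back from the RefSeq start, which for Saa2 and Saa3 lies inside the GENCODE first exon, so the stretches printed for those genes end before it. In Reg3g the 10 bases GGGAAACCCC lay at -123 to -114 and match the consensus on either strand. Over the 250 bases upstream of each start, the C/EBP letters were found in 5 of the 10 genes (Saa1, Saa2, Saa3, Lcn2 and Slpi), and 9.56% of 32851 mouse promoters of the same length hold them. The NFκB consensus was found in Chil1 and Reg3g (3.90% of promoters), the STAT letters TTCNNNGAA in Reg3b and Ang4 (7.02%), and TATAAA, searched on the gene's strand alone, in Reg3b, Reg3g and Wfdc18 (7.59%). The other motifs were searched on both strands. In GENCODE the far end of the Lcn2 window is already exonic, and an exon begins after the first 22 bases of the Reg3b window. The Lcn2 match and both Reg3b matches lie past those points, and whether they fall in exons was not checked. A match describes letters in the sequence and is not evidence of binding.

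Saa1, an acute-phase apolipoprotein, had the highest level per transcript length of the 10 genes in each of the 4 groups. On that scale (CPM divided by the length of the first annotated transcript, RPKM) untreated WT colon had 861 ± 660 (SD, n = 2) for Saa1 and 16.3 ± 11.7 for Slpi, the next gene in the order. In untreated WT the libraries of Slpi and Wfdc18 overlapped, as did those of Lcn2, Ang4, Reg3g, Saa3, Saa2 and Chil1, each with the next one named. Chil1 did not overlap Reg3b, the lowest, at 0. The order changed with DSS. In WT after DSS, Saa3 stood second at 262 ± 12.5 RPKM, below Saa1 at 394 ± 30.5 and above Lcn2 at 107 ± 65.1, which overlapped Slpi at 80.6 ± 8.34. In NAIL-ΔNFκB after DSS, Slpi was second at 114 ± 59.1 RPKM and Wfdc18 next at 31.5 ± 1.39, and Saa3 at 12.5 ± 1.23 overlapped Lcn2 at 12.4 ± 3.20. Except for the place of Saa1, the order depended on the length used. Over the length of all annotated exons Saa1 was first in each group, but in WT after DSS Slpi (59.9) came above Saa3 (55.8) and Lcn2 (37.2), and in NAIL-ΔNFκB after DSS Lcn2 (4.33) came above Saa3 (2.66). As a share of the CPM summed over the 10 genes, Saa1 made up 95.5% and 96.3% in untreated WT, 44.7% and 35.6% in WT after DSS, 96.9% and 98.5% in untreated NAIL-ΔNFκB, and 59.3% and 70.9% in NAIL-ΔNFκB after DSS. Without Saa1, the sum was 11.3 and 31.3 CPM in untreated WT, 313 and 410 CPM in WT after DSS, 8.28 and 6.35 CPM in untreated NAIL-ΔNFκB, and 179 and 104 CPM in NAIL-ΔNFκB after DSS. In both genotypes the DSS libraries therefore lay above the untreated ones on that sum, and the WT DSS libraries above the NAIL-ΔNFκB DSS libraries.

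**Figure D1:**
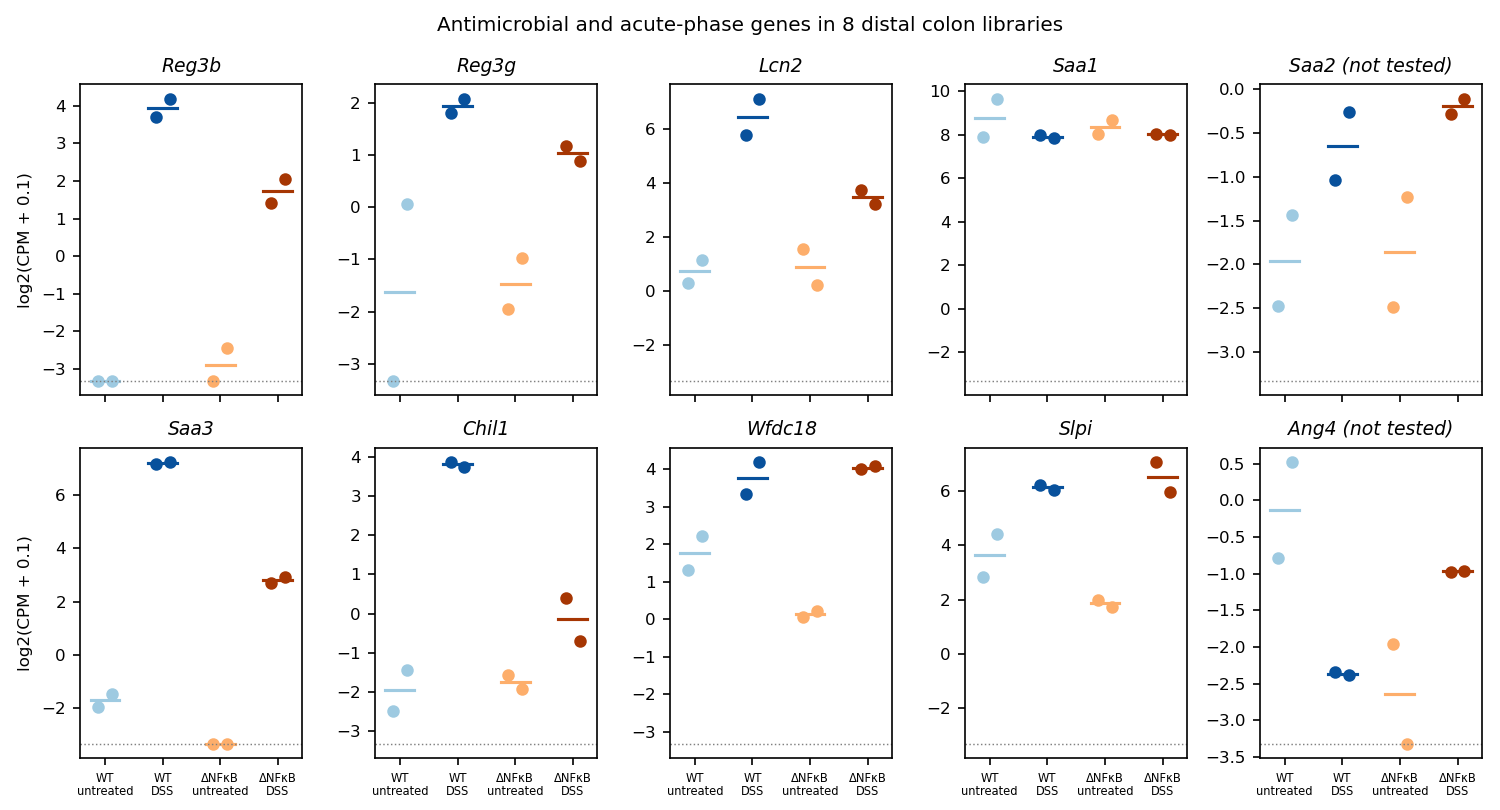
Level of each of the 10 genes in 8 libraries, as log2(CPM + 0.1) on the y axis, with points for the 2 libraries of each group on the x axis and a bar for their mean; the dotted line is 0 CPM. Saa3 rises from 0.160 and 0.268 CPM to 141 and 150.4 CPM with DSS in WT, while Saa1 stays above 226 CPM in every library.

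Of the 10 genes, 8 had enough counts to be tested. Saa2 and Ang4 did not pass the filter on low counts, and since a gene can pass it through the group in which it is high, counts over the 8 are not counts over the 10. In WT colon, DSS raised 7 of the 8 tested genes and lowered none, at an adjusted p under 0.05 in edgeR's quasi-likelihood test. Over all 17522 genes tested, 36.0% were called in this comparison, 17.2% higher and 18.8% lower. The median log2 difference was 4.38 over the 8 genes and 0.0024 over all genes tested. The libraries of the untreated and DSS groups did not overlap for 9 of the 10 genes, against 71.4% of all genes tested.

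Reg3b (chr6:78370657-78373466, plus strand) and Reg3g (chr6:78466269-78468872, minus strand) are C-type lectins secreted by gut epithelium, and Reg3g is known to bind the cell wall of Gram-positive bacteria. Reg3b was at 0 counts in both untreated WT libraries and at 12.9 and 18.2 CPM after DSS. With the untreated group set at a floor of 3 counts over the group, this is at least 143-fold higher (adjusted p = 0.000192). Reg3g had 0 and 0.939 CPM in untreated WT and 3.38 and 4.12 CPM after DSS, and the groups did not overlap. It rose by 2.89 ± 0.80 (SE) on the log2 scale (adjusted p = 0.0248). This call ended without WT DSS replicate 1 (adjusted p = 0.0699), without WT DSS replicate 2 (0.0977) and with the 2 WT groups fitted alone (0.0518), within a range of 0.00191 to 0.0977 over its alternatives. Without untreated WT replicate 2 the untreated group was at 0, and no fold is given.

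Of the serum amyloid genes, Saa3 responded and Saa1 did not pass the test. Saa3 had 0.160 and 0.268 CPM in untreated WT and 141 and 150.4 CPM after DSS, a gap far beyond the spread of either pair. The rise was 9.31 ± 0.22 on the log2 scale (adjusted p = 5.41e-06). Saa1 had 239.9 and 808 CPM in untreated WT and 253 and 227 CPM after DSS, so that the groups overlapped and 1 untreated library stood apart. Its log2 difference was -1.13 ± 0.47 (adjusted p = 0.0916). It was 0.034 without untreated WT replicate 2 (adjusted p = 0.932) and -1.72 without untreated WT replicate 1 (0.00248), over a range of 0.00248 to 0.997 in its alternatives. In untreated WT replicate 2 the summed level of 5 adipocyte markers was also the highest, 87.7 CPM against 2.25 to 13.3 CPM in the other 7 libraries, and its part in the Saa1 level was not tested. Counts for Saa1 exceeded those for Saa3 by 1502 and 3014 times in the untreated WT libraries and by 1.80 and 1.51 times after DSS. Saa2 had 0.0798 and 0.268 CPM in untreated WT and 0.386 and 0.733 CPM after DSS. That is 0.0305% to 0.325% of the Saa1 count over the 8 libraries, and Saa1 values were not whole in 8 of 8 libraries, so a part of so small a Saa2 value could be reads shared with Saa1. No stretch of 150 bases of the first annotated transcript of either was found in another gene, but 14.8% of the 50-base stretches of Saa1 and 13.3% of those of Saa2 were. Those transcripts hold 609 and 606 bases, against 2478 and 2518 over all annotated exons of Saa1 and Saa2. The rest of the exons was not searched.

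Lcn2 (chr2:32384633-32388252, minus strand), which binds the siderophores that bacteria use to take up iron, had 1.12 and 2.15 CPM in untreated WT. After DSS it had 55.5 and 139.7 CPM. All DSS values lay well above the untreated ones, though the 2 DSS mice differed from each other by more than the untreated mice did. The rise was 5.87 ± 0.59 on the log2 scale (adjusted p = 0.000377). Chil1 (chr1:134182176-134190181, plus strand), a chitinase-like protein that binds chitin without cutting it, had 0.0798 and 0.268 CPM in untreated WT and 14.6 and 13.3 CPM after DSS. Its rise was 6.18 ± 0.49 (adjusted p = 0.00017), with no overlap of the groups. The antiprotease Slpi (chr2:164354070-164389095, minus strand), an inhibitor of neutrophil elastase that also kills bacteria, had 7.03 and 21.5 CPM in untreated WT and 75.8 and 65.5 CPM after DSS, and Wfdc18 (chr11:83709015-83711348, plus strand), a small secreted protein of the same domain family, had 2.40 and 4.56 CPM and then 9.95 and 18.3 CPM. Both rose without overlap of the groups, Slpi by 2.30 ± 0.49 (adjusted p = 0.00882) and Wfdc18 by 2.01 ± 0.36 (adjusted p = 0.00434). The size for Slpi moved with the untreated WT mice, to 1.75 without replicate 1 (adjusted p = 0.0194) and 3.36 without replicate 2 (0.00373), and the call held in each alternative (3.41e-05 to 0.0397).

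Ang4 (chr14:51763878-51773590, minus strand), a secreted ribonuclease with microbicidal activity, went the other way in WT. Its libraries held 6 and 20 counts untreated and 1 and 1 after DSS, which is 0.479 and 1.34 CPM against 0.0966 and 0.0916 CPM. From so few counts the ratio was 10.1-fold lower after DSS, with a 95% counting interval of 2.52 to 87.6. Intervals of this kind cover counting error only. In a fit without the filter on low counts, Ang4 fell by 3.17 ± 0.97 on the log2 scale in WT (adjusted p = 0.0215). Saa2 differed by 1.58 ± 0.86 (adjusted p = 0.235). Adjusted p from that fit is not on the scale of the main fit: for Lcn2 in WT it was 1.19e-09 there and 0.000377 in the main fit.

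In NAIL-ΔNFκB colon, 6 of the 8 tested genes were higher after DSS and none was lower, where 35.4% of all genes tested were called, 16.2% higher and 19.2% lower. The median log2 difference was 3.38 over the 8 genes and -0.038 over all genes. Groups did not overlap for 9 of 10 genes, against 71.7% of all genes tested. Since the untreated mice were male and the DSS mice female, a fit with a sex term, in which the WT untreated pair alone informs the effect of sex, is given where it changed a call. Reg3b rose, from 0 and 0.0813 CPM (1 count over the group) to 2.56 and 4.02 CPM. The ratio was 82.1 with a counting interval of 14.2 to 3293 (adjusted p = 0.00101), and the call ended with the sex term (adjusted p = 1, in a range from 7.48e-07), where the SE of 6725 on the log2 scale leaves the size without an estimate. Reg3g had 0.158 and 0.407 CPM and then 2.15 and 1.75 CPM, with no overlap. Its difference of 2.75 ± 0.95 just missed the threshold (adjusted p = 0.0524). It passed under other settings, among them DESeq2 (0.0253) and the sex term (0.00551, with no size given because the only untreated female library was at 0 counts), and adjusted p ran from 0.00494 to 0.201.

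Saa3 rose in NAIL-ΔNFκB as well, from values that round to 0 counts in both untreated libraries to 6.45 and 7.42 CPM, at least 57.7-fold higher (adjusted p = 7.28e-05). Saa1 had 259 and 408 CPM untreated and 261 and 254 CPM after DSS. These groups overlapped, and the log2 difference of -0.37 ± 0.46 did not pass (adjusted p = 0.565). With the sex term it was 1.38 (adjusted p = 0.0299, in a range of 0.0299 to 0.991), and without untreated NAIL-ΔNFκB replicate 2 it was 0.010 (0.991). Saa2 had 0.0789 and 0.325 CPM and then 0.717 and 0.824 CPM, all within a few counts.

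Lcn2 had 2.84 and 1.06 CPM in untreated NAIL-ΔNFκB and 13.4 and 9.27 CPM after DSS. The DSS libraries were again above both untreated ones, and Lcn2 rose by 2.53 ± 0.59 (adjusted p = 0.0122). That call ended without untreated NAIL-ΔNFκB replicate 2 (adjusted p = 0.0737), without NAIL-ΔNFκB DSS replicate 1 (0.0654), with limma-voom (0.0577) and with the sex term (0.0907), over a range of 9.04e-05 to 0.0907. Chil1 had 0.237 and 0.163 CPM and then 1.23 and 0.515 CPM, from 5 and 17 counts per group. The rise of 2.07 ± 0.63 (adjusted p = 0.0341) was 1.32 without NAIL-ΔNFκB DSS replicate 1 (adjusted p = 0.270). The Chil1 call also ended without either WT DSS library (0.0567 and 0.0557) or either untreated NAIL-ΔNFκB library (0.0914 and 0.128), in DESeq2 (0.0514), in limma-voom (0.0839), in the 2 groups alone (0.0778) and with the sex term (0.0848), over a range of 0.0156 to 0.270.

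Both antiproteases rose, and these calls held in every setting tried. Slpi had 3.86 and 3.25 CPM in untreated NAIL-ΔNFκB and 136 and 63.1 CPM after DSS, and Wfdc18 had 0.946 and 1.06 CPM and then 15.9 and 16.9 CPM. Neither pair of groups came near overlapping. Slpi rose by 4.80 ± 0.57 (adjusted p = 0.000716) and Wfdc18 by 4.02 ± 0.42 (adjusted p = 0.000448). Ang4 had 2 and 0 counts untreated and 4 and 4 after DSS, 5.13-fold higher with a counting interval of 1.02 to 49.6, and in the fit without the filter its log2 difference was 2.24 (adjusted p = 0.190).

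Without DSS, none of the 8 tested genes passed the threshold between NAIL-ΔNFκB and WT in edgeR, and 0.388% of all genes tested did (0.0399% higher and 0.348% lower). At an unadjusted p under 0.05 there were 3 (Saa3, Wfdc18 and Slpi), and DESeq2 called 1 (Wfdc18). Libraries of the 2 genotypes did not overlap for 4 of 10 genes, against 45.2% of all genes tested. Slpi was 7.03 and 21.5 CPM in WT and 3.86 and 3.25 CPM in NAIL-ΔNFκB, so both mutant libraries were below both WT ones. The log2 difference was -2.01 ± 0.57, with a 95% interval from -3.32 to -0.70 (adjusted p = 0.178). It passed with the sex term (-2.59, adjusted p = 0.0483) and with no filter on low counts (-2.07, 0.00899). In this comparison the sex term weighs the male mutant mice against untreated WT replicate 2, the male one. It therefore comes close to leaving out untreated WT replicate 1 (-2.61) and is not a separate check. Without untreated WT replicate 2 the Slpi difference was -1.001. Wfdc18 lay in the same order, with a log2 difference of -1.80 ± 0.44 and an interval from -2.82 to -0.78 (adjusted p = 0.150). Wfdc18 passed in DESeq2 (adjusted p = 0.0195) and with no filter (0.017), and over its alternatives the range was 0.017 to 0.442. Saa3, at 6 counts over the WT group and 0 in NAIL-ΔNFκB, was at least 1.82-fold lower (adjusted p = 0.171). Reg3b, at 0 counts over the WT group and 1 over the NAIL-ΔNFκB group, is given no fold (adjusted p = 0.551). Saa2 had 0.0798 and 0.268 CPM in WT and 0.0789 and 0.325 CPM in NAIL-ΔNFκB, 5 counts over each group, and overlapped. Saa1 differed by -0.65 ± 0.46 (adjusted p = 0.521), Reg3g by -0.80 ± 1.08 (0.760), Lcn2 by 0.23 ± 0.71 (0.903) and Chil1 by 0.14 ± 0.78 (0.962), each with overlapping groups. Ang4 had 26 counts over the WT group and 2 over the NAIL-ΔNFκB group, 11.8-fold lower with a counting interval of 2.96 to 103, and in the fit without the filter adjusted p was 0.0941.

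After DSS, when the mice of both genotypes were female, 4 of the 8 tested genes were lower in NAIL-ΔNFκB than in WT and none was higher. Of all genes tested 20.0% were called, 8.32% higher and 11.7% lower. The 4 were Saa3, Chil1, Lcn2 and Reg3b. The median log2 difference over the 8 genes was -1.59, against 0.028 over all genes, and groups did not overlap for 7 of 10 genes, against 68.1%. In bulk tissue, fewer cells of a type and less RNA per cell cannot be told apart.

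Saa3 had 141 and 150.4 CPM in WT and 6.45 and 7.42 CPM in NAIL-ΔNFκB after DSS, with mice of a group close to each other. The log2 difference was -4.39 ± 0.15 (adjusted p = 8.9e-05), and it lay between -4.53 and -4.29 with each library left out in turn. Saa1 did not pass the test: it had 253 and 227 CPM in WT and 261 and 254 CPM in NAIL-ΔNFκB, a log2 difference of 0.10 ± 0.46 with an interval from -0.96 to 1.17 (adjusted p = 0.896). The count ratio of Saa1 to Saa3 was 40.4 and 34.2 in NAIL-ΔNFκB after DSS. Chil1 had 14.6 and 13.3 CPM in WT and 1.23 and 0.515 CPM in NAIL-ΔNFκB, and the difference was -3.98 ± 0.42 (adjusted p = 0.0022). Both calls held with each library left out and in every other setting tried.

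Lcn2 had 55.5 and 139.7 CPM in WT after DSS and 13.4 and 9.27 CPM in NAIL-ΔNFκB. Its groups did not overlap, and the log2 difference was -3.10 ± 0.49 (adjusted p = 0.00571). Without NAIL-ΔNFκB DSS replicate 2 it was -2.91 and no longer passed (adjusted p = 0.0698, in a range from 2.29e-06). Reg3b had 12.9 and 18.2 CPM in WT and 2.56 and 4.02 CPM in NAIL-ΔNFκB, a difference of -2.24 ± 0.36 (adjusted p = 0.00799). It did not pass without WT DSS replicate 2 (adjusted p = 0.0657) or without NAIL-ΔNFκB DSS replicate 2 (0.0514), within a range of 6.98e-05 to 0.0657. Without NAIL-ΔNFκB DSS replicate 2, then, 2 of the 8 genes were called.

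The other tested genes did not pass. Reg3g had 3.38 and 4.12 CPM in WT and 2.15 and 1.75 CPM in NAIL-ΔNFκB, without overlap, for a log2 difference of -0.94 ± 0.71 (adjusted p = 0.378). Its interval, from -2.57 to 0.69, includes the difference found for Reg3b. Wfdc18 and Slpi overlapped between the genotypes. Wfdc18 differed by 0.21 ± 0.33, with an interval from -0.55 to 0.97 (adjusted p = 0.683), and Slpi by 0.50 ± 0.45, with an interval from -0.54 to 1.54 (adjusted p = 0.467). Saa2, with 12 counts over the WT group and 15 over the NAIL-ΔNFκB group, overlapped as well, and in the fit without the filter its log2 difference was 0.43 (adjusted p = 0.813). Ang4 had 2 counts over the WT group and 8 over the NAIL-ΔNFκB group, a ratio of 4.37 with a counting interval of 0.873 to 42.3 that includes no difference.

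**Figure D2:**
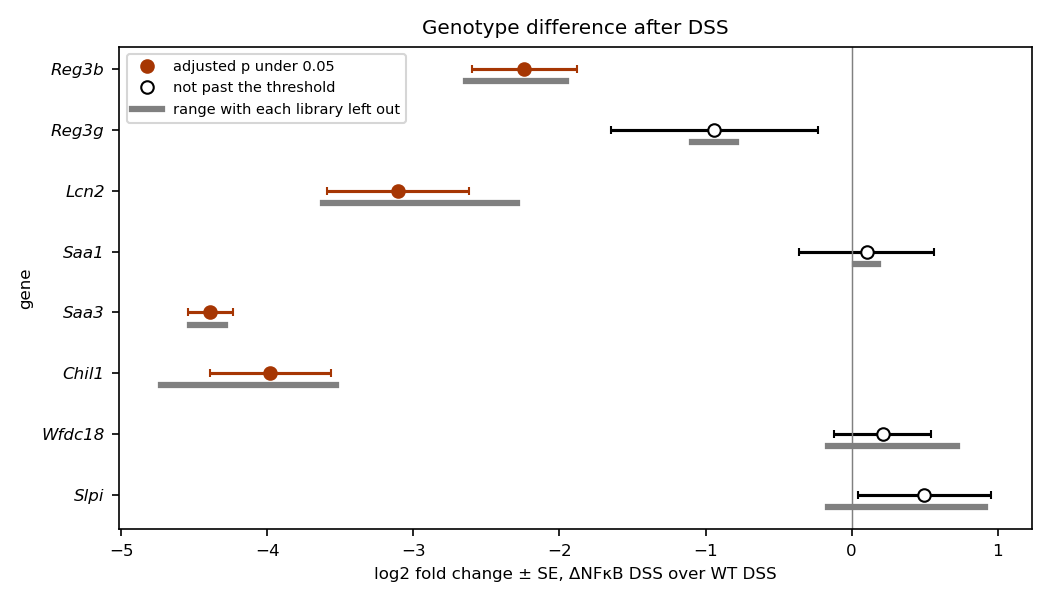
Log2 difference between NAIL-ΔNFκB and WT after DSS (x axis) for the 8 tested genes (y axis), with the estimate ± SE and a grey bar for the range when each of the 8 libraries is left out. Saa3 (-4.39), Chil1 (-3.98), Lcn2 (-3.10) and Reg3b (-2.24), in filled points, lie below 0 over the whole grey bar, and Wfdc18 and Slpi have bars that cross 0.

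The test of whether the response to DSS itself differed between the genotypes called 4 of the 8 genes, in both directions, where 17.7% of all genes tested were called, 8.63% with a larger and 9.07% with a smaller value in NAIL-ΔNFκB. Lcn2 and Chil1 responded less in NAIL-ΔNFκB than in WT, and Wfdc18 and Slpi more. The difference of the log2 responses was -3.34 ± 0.86 for Lcn2 (adjusted p = 0.0343) and -4.12 ± 0.97 for Chil1 (adjusted p = 0.0276). For Wfdc18 it was 2.01 ± 0.56 (adjusted p = 0.042), and for Slpi 2.51 ± 0.73 (adjusted p = 0.0492). The 2 pairs arose differently in the values. Lcn2 and Chil1 overlapped between the untreated groups and did not overlap after DSS. Wfdc18 and Slpi had lower values in both untreated NAIL-ΔNFκB libraries than in untreated WT, a difference that did not pass the test, and overlapped after DSS. Untreated males and females were unequally spread over these groups. With a sex term the calls for Chil1, Wfdc18 and Slpi held, while that for Lcn2 ended (adjusted p = 0.0646). The untreated WT pair alone informs the effect of sex. In this comparison the sex term therefore comes close to leaving out untreated WT replicate 1, and it is not a separate check.

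These 4 calls rested on few mice. The number called lay between 0 and 4 with 1 library left out. It was 0 without untreated NAIL-ΔNFκB replicate 1 or NAIL-ΔNFκB DSS replicate 2, 4 without untreated WT replicate 1, and 1 without any of the other 5 libraries. Without untreated WT replicate 1 the 4 were another set, with Lcn2 lost (adjusted p = 0.0692) and Saa1 gained (1.36, adjusted p = 0.0219). Slpi was 1.46 without untreated WT replicate 2 (adjusted p = 0.154). The highest adjusted p in any alternative was 0.229 for Lcn2, 0.140 for Chil1, 0.142 for Wfdc18 and 0.154 for Slpi, and limma-voom called Chil1 alone. Saa1 did not pass (0.76 ± 0.66, adjusted p = 0.437) but did with the sex term (1.38, adjusted p = 0.0203). That size is close to the 1.36 without untreated WT replicate 1, and the 2 fits are not separate checks. Over its alternatives the Saa1 difference ran from -0.39 to 1.38. Neither Reg3g (-0.14 ± 1.56, adjusted p = 0.960) nor Reg3b (adjusted p = 0.176) passed. For Saa3 (adjusted p = 0.623) and Reg3b no size of the difference is given, since a group with 0 counts enters it. In the fit without the filter, whose adjusted p is not on the scale of the main fit, Ang4 had a difference of 5.41 ± 1.49 (adjusted p = 0.0195). It came from 1 to 20 counts per library in WT, the 20 in untreated replicate 2, and 0 to 4 in NAIL-ΔNFκB. Saa2 had a difference of 0.33 ± 1.28 (adjusted p = 1).

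**Figure D3:**
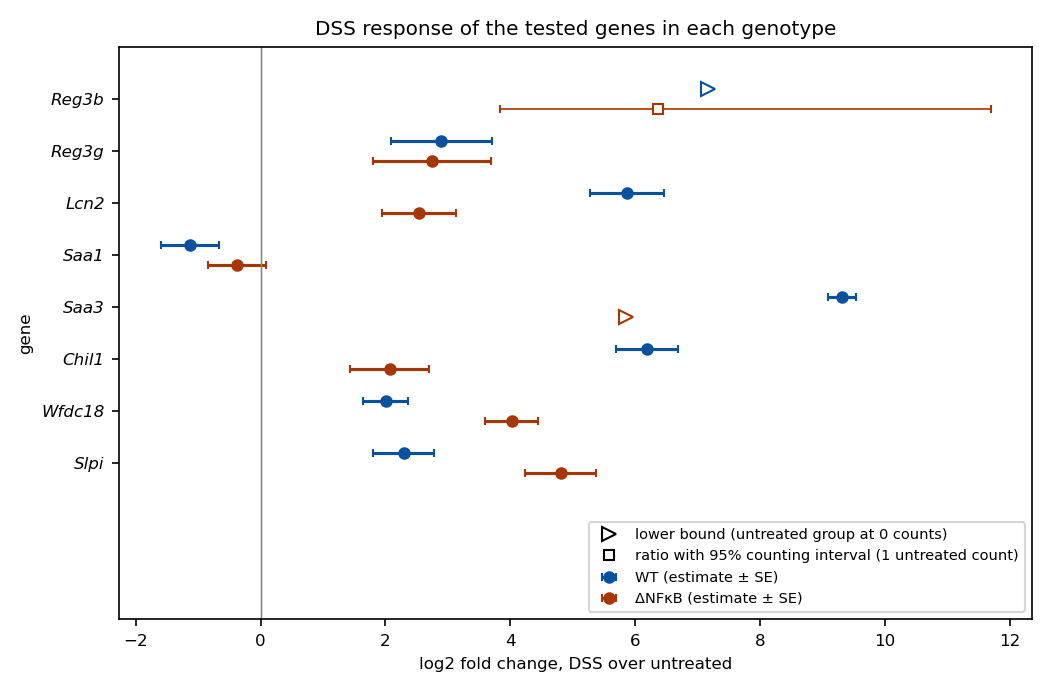
Log2 fold change with DSS (x axis) for the 8 tested genes (y axis) in WT (blue) and NAIL-ΔNFκB (brown): circles are estimates ± SE, triangles lower bounds where both untreated libraries were at 0 counts, and the square a ratio with its 95% counting interval. Lcn2 (5.87 and 2.53) and Chil1 (6.18 and 2.07) lie further right in WT, and Wfdc18 (2.01 and 4.02) and Slpi (2.30 and 4.80) further right in NAIL-ΔNFκB.

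Of the 8 tested genes, Wfdc18 and Slpi, and Lcn2 and Chil1, were nearest to each other by the shape and size of their changes over the 8 libraries. As a description, the distance between centred log2 CPM values was smallest for Wfdc18 and Slpi (1.55) and next for Lcn2 and Chil1 (1.76), among the 28 pairs of tested genes. The largest was between Saa1 and Saa3 (13.5). Reg3b and Reg3g, both on chromosome 6 and with 74.7% of aligned transcript bases in common, were 6.10 apart. Over 14352 further genes, those closest to Lcn2 were Serpina3n (1.16), Stfa2 (1.40) and Cd300lf (1.42). Serpina3n, an acute-phase protease inhibitor, had 6.55 and 12.1 CPM in untreated WT, 213 and 458 CPM in WT after DSS, 13.5 and 5.69 CPM in untreated NAIL-ΔNFκB, and 34.4 and 27.6 CPM in NAIL-ΔNFκB after DSS. Like Lcn2, it was highest in WT DSS replicate 2. Those closest to Saa3 were Prss22 (3.12), Cxcl3 (3.50) and Cxcl2 (4.16), and those closest to Reg3b were Cxcl3 (1.98), Myot (1.98) and Cxcl2 (2.03). Cxcl2 and Cxcl3 encode chemokines that attract neutrophils. These libraries share their tissue and groups, so nearness says only that the values changed alike in shape and size. Where libraries are at 0, the size also depends on the prior count of 0.5. Cxcl3, Prss22 and Stfa2 were at 0 CPM in every untreated library, and Stfa2 had 0.206 to 3.39 CPM after DSS.

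Among 24 relatives of the 10 genes in the same families, 11 were tested and 6 had no count in any library. With DSS, 4 were higher and 5 lower in WT, and 3 higher and 5 lower in NAIL-ΔNFκB. Chil3, a chitinase-like gene of macrophages and neutrophils, rose by 8.60 ± 0.77 in WT (adjusted p = 0.000234) and by 3.39 ± 0.66 in NAIL-ΔNFκB (0.00549). After DSS Chil3 was lower in NAIL-ΔNFκB than in WT by -2.92 ± 0.49 on the log2 scale (adjusted p = 0.007), as was Wfdc21 by -2.89 ± 0.60 (0.0184). Chil3 therefore lay on the same side as Chil1. Wfdc17 rose in WT by 1.77 ± 0.28 (adjusted p = 0.00273) and in NAIL-ΔNFκB by 1.38 ± 0.30 (0.00928), but Wfdc2 fell in both, with log2 differences of -1.79 ± 0.14 (0.000155) and -1.21 ± 0.14 (0.000544), and so did Wfdc1, with -2.38 ± 0.33 (0.00153) and -2.62 ± 0.35 (0.00111). Reg4, a goblet and endocrine cell lectin, was called lower with DSS in both genotypes. In WT its log2 difference was -3.68 ± 0.31 (adjusted p = 0.000192). The test of the difference between responses called Reg4, with a larger value in NAIL-ΔNFκB, and Chil3, with a smaller one. Without DSS, 0 of the 11 were called between the genotypes. The near relative Reg3a had 1 count in 1 library, and Reg3d none.

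Among 24 other antimicrobial genes, 21 were tested. In WT, DSS raised 14 and lowered 3, and in NAIL-ΔNFκB it raised 11 and lowered 1. S100a8, a subunit of the neutrophil protein calprotectin, had 0 and 0.0671 CPM in untreated WT, 64.5 and 123 CPM in WT after DSS, 3.00 and 0.163 CPM in untreated NAIL-ΔNFκB, and 27.5 and 25.5 CPM in NAIL-ΔNFκB after DSS. Nos2, the inducible nitric oxide synthase, rose by 7.16 ± 0.72 in WT (adjusted p = 0.00038) and was also called higher in NAIL-ΔNFκB. Pglyrp1, a peptidoglycan-binding protein, rose by 1.03 ± 0.10 in WT (0.00038) and 1.62 ± 0.11 in NAIL-ΔNFκB (9.4e-05). Zg16, a goblet cell lectin that aggregates Gram-positive bacteria, fell in both, with log2 differences of -3.74 ± 0.25 in WT (adjusted p = 0.000101) and -1.61 ± 0.23 in NAIL-ΔNFκB (0.0016). After DSS, 4 were higher and 6 lower in NAIL-ΔNFκB than in WT. Zg16 was higher by 1.41 ± 0.23 (adjusted p = 0.00692) and Ido1, which degrades tryptophan, by 2.02 ± 0.42 (0.0157). The acute-phase gene Hp was lower, with a log2 difference of -3.58 ± 0.60 (adjusted p = 0.00726), as was S100a9, with -2.43 ± 0.56 (0.0211). The test of the difference between responses called 3 in each direction, with Zg16 at 2.13 ± 0.33 (adjusted p = 0.0089) and Pglyrp1 at 0.59 ± 0.15 (0.0304) larger in NAIL-ΔNFκB.

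Cytokines, receptors, transcription factors and other genes of the pathways known to induce these genes were described as a list of 27. The list holds the inhibitor Socs3 and is not one of inducers alone. Of these, 26 were among the symbols of the count table and 22 were tested. DSS raised 16 and lowered 2 in WT, and raised 10 and lowered 4 in NAIL-ΔNFκB. The median log2 differences were 1.07 and 0.66, against 0.0024 and -0.038 over all genes. In WT, Cebpb, which encodes a C/EBP factor, rose by 2.46 ± 0.21 (adjusted p = 0.000201), the oncostatin M receptor Osmr by 2.07 ± 0.24 (0.000689) and Il1b by 5.75 ± 0.69 (0.000855). In NAIL-ΔNFκB, Socs3, a feedback inhibitor of STAT3, rose by 4.79 ± 0.53 (adjusted p = 0.000541), Tnfrsf1a by 1.15 ± 0.16 (0.00121) and Tnf by 4.24 ± 0.63 (0.00171). The lowest p among those lower in NAIL-ΔNFκB with DSS were for receptor chains of interleukin 1 and 6: Il1rap (-0.74 ± 0.16, adjusted p = 0.00888), Il6st (-0.65 ± 0.15, 0.0114) and Il1r1 (-0.96 ± 0.22, 0.0115). After DSS, 11 of the 22 were lower in NAIL-ΔNFκB than in WT and 1, the receptor chain Il17rc, was higher (0.70 ± 0.20, adjusted p = 0.0448).

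Il1r1, the receptor for interleukin 1, had 30.3 and 22.3 CPM in untreated WT, 53.9 and 78.0 CPM in WT after DSS, 28.2 and 26.1 CPM in untreated NAIL-ΔNFκB, and 15.0 and 13.0 CPM in NAIL-ΔNFκB after DSS. It moved up with DSS in WT and down in NAIL-ΔNFκB. The genotype difference after DSS was -2.24 ± 0.22 (adjusted p = 0.0019) and the difference of the responses -2.29 ± 0.30 (0.00694). For Il6st, the shared receptor chain of the interleukin 6 family, these were -1.18 ± 0.15 (0.00318) and -1.25 ± 0.21 (0.011). The difference of the responses was called for 5 of the 22 genes, each smaller in NAIL-ΔNFκB. The 4 that did not pass the filter on low counts were Il22, Il17a, Il17f and Il23a. Il22 had 0 and 0.134 CPM in untreated WT, 0.290 and 0.549 CPM in WT after DSS, 0 and 0 CPM in untreated NAIL-ΔNFκB, and 1.43 and 0.721 CPM in NAIL-ΔNFκB after DSS, values of a few counts each. Il36g was not analysed here.

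**Figure D4:**
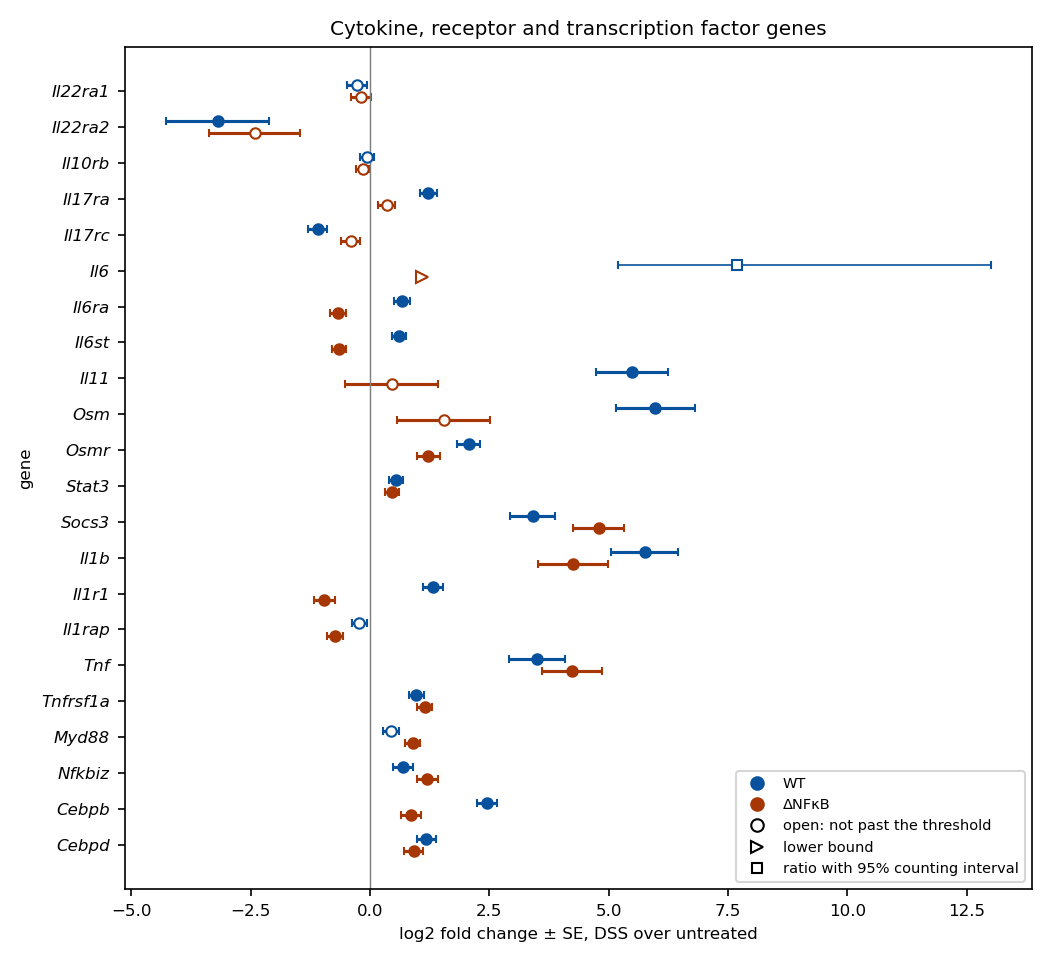
Log2 fold change with DSS (x axis) for the 22 tested genes of the inducing pathways (y axis) in WT (blue) and NAIL-ΔNFκB (brown). Circles are estimates ± SE, filled at an adjusted p under 0.05. The triangle is a lower bound and the square a ratio with its 95% counting interval. Il1r1, Il6ra and Il6st lie to the right of 0 in WT and to the left in NAIL-ΔNFκB, while Socs3, Il1b and Tnf lie to the right in both.

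Receptors and targets of the 10 proteins formed a list of 13, with 9 tested. DSS raised 4 and lowered 0 in WT, and raised 5 and lowered 1 in NAIL-ΔNFκB. Fpr2, a formyl peptide receptor that binds serum amyloid A, rose by 5.08 ± 0.46 in WT (adjusted p = 0.000241) and by 3.55 ± 0.50 in NAIL-ΔNFκB (0.00141). After DSS it was 9.04 ± 0.605 CPM (SD, n = 2) in WT and 2.93 ± 0.0849 CPM in NAIL-ΔNFκB, a log2 difference of -1.62 ± 0.35 (adjusted p = 0.0174). Slc22a17, a receptor for lipocalin 2, was also lower after DSS in NAIL-ΔNFκB (-1.80 ± 0.44, adjusted p = 0.0264). Extl3, a receptor for Reg3 proteins, rose in WT by 0.56 ± 0.13 (adjusted p = 0.0127), and its response was smaller in NAIL-ΔNFκB (-0.77 ± 0.18, 0.0281). The genes of neutrophil elastase (Elane), cathepsin G (Ctsg) and proteinase 3 (Prtn3), proteases of which Slpi restrains the first 2, were below the filter, as was Lrp2.

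Marker genes of cell types moved with the groups, and their part in the results above was not tested. The summed level of 9 neutrophil markers was 99.2 and 233 CPM in untreated WT, 520.5 and 666 CPM in WT after DSS, 83.5 and 136 CPM in untreated NAIL-ΔNFκB, and 200.4 and 151 CPM in NAIL-ΔNFκB after DSS. Of the 9, 8 rose with DSS in each genotype and 8 were lower in NAIL-ΔNFκB than in WT after DSS. The markers at 0 numbered up to 4 in untreated libraries and 0 in DSS libraries. The sum of 8 macrophage markers was 153 to 203 CPM in untreated WT, 252 and 256 CPM in WT after DSS, and 152 to 168 CPM in the 4 NAIL-ΔNFκB libraries. The 9 goblet cell markers summed to 17872 and 24652 CPM in untreated WT, 2996 and 3760 CPM in WT after DSS, 15094 and 16717 CPM in untreated NAIL-ΔNFκB, and 10318 and 8617 CPM in NAIL-ΔNFκB after DSS, and 8 of 9 were higher in NAIL-ΔNFκB after DSS. The 10 epithelial markers summed to 7463 and 6640 CPM in WT after DSS and 10148 and 10644 CPM in NAIL-ΔNFκB after DSS, and 5 of them were higher in NAIL-ΔNFκB. After DSS the neutrophil, macrophage, adipocyte, smooth muscle and squamous marker sums were lower in NAIL-ΔNFκB than in WT. Lcn2, Chil1, Saa3 and Reg3b were lower as well, while the epithelial and goblet cell sums were higher. Those called lower were 8 neutrophil, 1 macrophage and 1 squamous marker, with 0 adipocyte and 0 smooth muscle markers. Which cells made the 4 genes was not tested. The 6 smooth muscle markers summed to 6301 and 3297 CPM in untreated WT, 1226 and 984 CPM in WT after DSS, 5164 and 5247 CPM in untreated NAIL-ΔNFκB, and 816 and 814 CPM in NAIL-ΔNFκB after DSS. All 6 fell with DSS in each genotype, and 0 of 6 were called between the genotypes after DSS. Squamous epithelium markers (7 genes) summed to 22.8 and 20.4 CPM in WT after DSS and 1.63 to 3.20 CPM in the other 6 libraries.

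**Figure D5:**
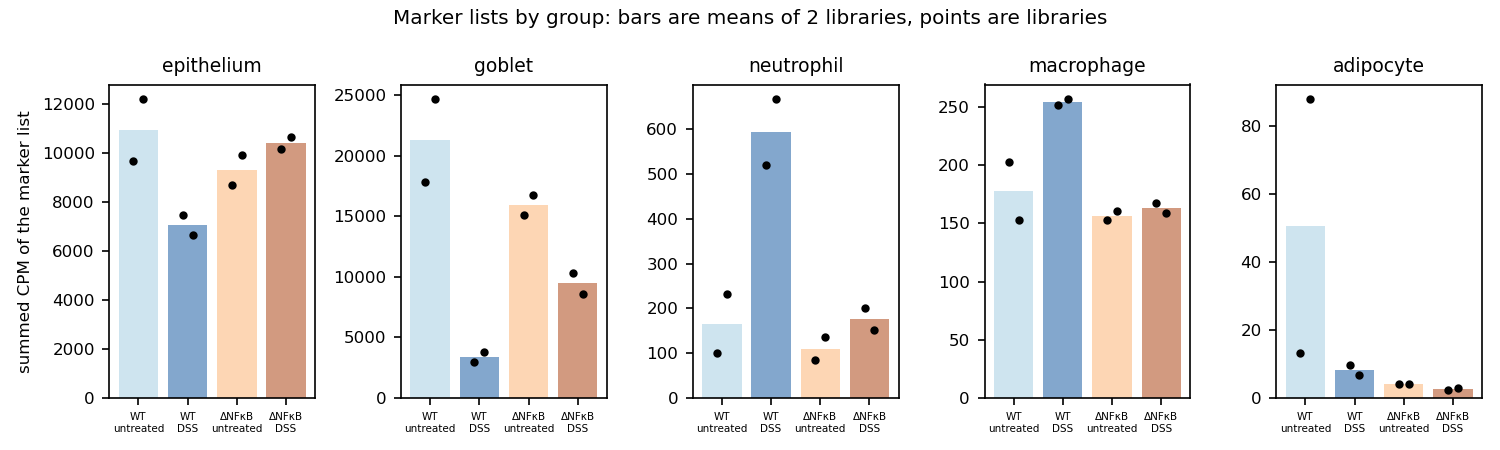
Summed CPM of 5 marker lists (y axes, each from 0) in the 4 groups (x axis), with bars for the mean of 2 libraries and points for the libraries. Neutrophil markers reach 520.5 and 666 CPM in WT after DSS and 200.4 and 151 CPM in NAIL-ΔNFκB after DSS, and adipocyte markers reach 87.7 CPM in 1 untreated WT library.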

How the data were processed

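RNA from the distal colon of 8 mice was sequenced as paired reads of total RNA libraries, per the labels. Per the submitters' processing notes the tools were HISAT2 2.1, SAMtools 1.8 and featureCounts of Subread 1.6.2, with the build mm10. The authors deposited estimated counts per gene, which are not all whole (18.8% of nonzero values had a fraction); how reads that match several genes were divided is not given in the sources used here. The deposited expected counts were summed per symbol, rounded and fitted with edgeR 4.0.16 (R 4.3.3) for all 8 libraries as 4 group means: filterByExpr kept 17522 genes, TMM factors ran from 0.882 to 1.15, and quasi-likelihood tests were adjusted over all genes tested by Benjamini-Hochberg at 0.05, two-sided. The residual degrees of freedom were 4. An exact permutation test of 2 against 2 mice cannot go below 0.333 and was not used. Folds against a group at 0 used a floor of 3 counts over the group. Distances used log2 CPM with a prior count of 0.5. The pipeline was tested on simulated counts. Alternatives were DESeq2 1.42.0, limma-voom (limma 3.58.1), 2 other scalings, 2 other filters, a replicate block, a sex term, pairwise fits, other library sizes, the Ensembl table and each library left out. The 10 genes and all lists were chosen with earlier results of these data known. The text names all 10 genes in each comparison and the 3 genes nearest to Reg3b, Saa3 and Lcn2. From each other list it names at most 3 genes per direction with the smallest p with DSS, and 2 otherwise. Il22, Il17a, Il17f, Il23a, Reg3a, Reg3d, Elane, Ctsg, Prtn3, Lrp2 and the sample values of Il1r1 were added after their values were seen. Gene positions are from GENCODE M21.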

Additional observations from a re-analysis of the deposited data

Results flagged for a closer look

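For 4 genes the response to DSS differed between the genotypes by the test of the difference itself (edgeR's quasi-likelihood test, Benjamini-Hochberg adjusted). The log2 response in NAIL-ΔNFκB minus that in WT was -3.34 for Lcn2 (adjusted p = 0.0343) and -4.12 for Chil1 (adjusted p = 0.0276). It was 2.01 for Wfdc18 (adjusted p = 0.042) and 2.51 for Slpi (adjusted p = 0.0492). None of these calls held with each library left out, and limma-voom called Chil1 alone. With 1 library left out, the sizes ran from -3.93 to -2.49 for Lcn2 and from -5.21 to -3.60 for Chil1. They ran from 1.44 to 2.52 for Wfdc18 and from 1.46 to 3.07 for Slpi. In NAIL-ΔNFκB the untreated mice were male and the DSS mice female.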

How the results depend on the processing

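Of 21 values called for the 10 genes over the 5 comparisons, 12 held with each library left out and 11 in every alternative, among them the genotype difference of Saa3 and Chil1 after DSS. With 1 library left out, the number of genes of the 10 called lay between 0 and 1 for genotype without DSS, 2 and 4 for genotype after DSS and 0 and 4 for the difference of responses. The number called over all genes lay between 3400 and 6203 for DSS in WT (6315 with all libraries), 3454 and 6616 for DSS in NAIL-ΔNFκB (6199), 0 and 201 for genotype without DSS (68), 507 and 3843 for genotype after DSS (3499), and 512 and 3738 for the difference (3102). A sex term left 3343 genes for DSS in NAIL-ΔNFκB. For genotype without DSS, 2 of the 10 and 330 genes were called with no filter on low counts, 1 and 264 with DESeq2, 1 and 176 with the sex term, and 0 genes with the 2 groups alone. limma-voom called 1 of the 8 tested genes for the difference. Saa2 and Ang4 did not pass the filter in the main fit and were not counted. Each number called of the 10 genes in this section is therefore out of 8.

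Deviations of same-numbered replicates had correlations from -0.126 to 0.244 over 6 pairs of groups. With so few mice these values cannot decide whether a replicate number marks a shared litter or day, which the labels do not give. With the replicate block, 6205 genes were called for DSS in WT, 6119 for DSS in NAIL-ΔNFκB, 0 for genotype without DSS, 3508 for genotype after DSS and 3038 for the difference, and 7, 6, 0, 4 and 3 of the 10 genes; the block ended the call of Slpi for the difference (adjusted p = 0.0638).

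Signs turned for values that had not been called. With 1 library left out, Saa1 lay between -1.72 and 0.034 for DSS in WT and between -0.65 and 0.010 for DSS in NAIL-ΔNFκB, where it was 1.38 with the sex term. For genotype without DSS the ranges were -1.73 to 4.68 for Reg3g, -0.67 to 0.78 for Lcn2, -1.30 to 0.45 for Saa1 and -0.43 to 1.19 for Chil1, and Reg3g was 0.45 with limma-voom, Lcn2 -0.13 and Chil1 -0.40 with the sex term. For genotype after DSS they were -0.16 to 0.72 for Wfdc18 and -0.16 to 0.91 for Slpi. For the difference they were -5.67 to 0.74 for Reg3g, which was 0.77 with the sex term, and -0.39 to 1.36 for Saa1. The Reg3g values of 4.68 and -5.67 are from the fit without untreated WT replicate 2. That fit left untreated WT at 0 Reg3g counts, so neither value is a size of the difference. The cause of the turned signs was not tested. Leaving out a library leaves its group with 1 mouse, which is then assumed to vary like the others. Depth limits Saa2, Ang4 and the untreated levels of Reg3b, Saa3 and Chil1, where 3 counts equal 0.201 to 0.309 CPM.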
